A study of Mus musculus with 9 samples.

Results

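Interferon beta, the product of Ifnb1, was described here together with the genes that switch it on and carry its signal: the receptor chains Ifnar1 and Ifnar2, the kinases Tyk2 and Jak1, and the transcription factors Stat2, Irf9, Irf3 and Irf7. These 9 genes were picked by name, with the outcome of the comparison below already known, and were measured by 14 of the 41174 probes of an Agilent mouse array. Of the 9, 8 were listed under the current symbol (12 probes), and the 2 probes of Irf9 were listed under its older symbol Isgf3g. A probe is called detected here where the scanner software found its signal in Cy5 well above background. All 14 probes passed the filter on dim probes, which asked for detection on 4 or more arrays.

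The arrays hybridised RNA from tumour cells of MMTV-Wnt-1 and MMTV-Her2 mice, in which a promoter of mouse mammary tumour virus, active in the mammary gland, drives an oncogene (Wnt-1 or Her2). The cells were freshly isolated and sorted as GFP-. The groups were Fzd8-CRD-treated cells (5 arrays) and control cells (4 arrays), which the series calls biological replicates. Fzd8-CRD is a Wnt inhibitor that carries the Wnt-binding, cysteine-rich domain of the receptor Frizzled 8. Both tumour models are named for every array, so the model or mixture behind an array remains unknown here, as do the form, dose and length of the treatment and the age of the mice. The treatment text names the inhibitor for all 9 arrays, and what the controls received is likewise unknown here. Tumour RNA carried Cy5 and a pooled reference RNA carried Cy3. The labels name that reference in 3 different ways (universal mouse RNA, a pool of strains and universal human RNA), so a ratio was not read as a level.

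Some facts of the whole set bear on every value below. The 5 Fzd8-CRD arrays lay on 4 slides and the 4 control arrays on 1 other slide that was scanned 367 days or more earlier, so slide, scan and treatment cannot be told apart. The share of probes detected in Cy5 was 53.1 to 60.6% for Fzd8-CRD and 64.6 to 71.5% for control arrays. In Cy3, the reference, it was 59.2 to 66.3% for Fzd8-CRD and 72.3 to 75.3% for control arrays. Control replicate 2 stood apart, with a correlation of 0.618 to 0.737 with the other 8 arrays over all genes. Fzd8-CRD replicates 1 and 2 correlated at 0.976 and control replicates 3 and 4 at 0.979. Of 18263 genes tested with limma, 2620 (14.3%) had a Benjamini-Hochberg adjusted p under 0.05 between Fzd8-CRD and control cells, 6.58% higher and 7.76% lower, and the median difference of all genes was -0.07 on the log2 scale. Without control replicate 2 the number was 3098, and it was lowest, 1339, without control replicate 3. Leaving out control replicate 4 gave 1613 and leaving out Fzd8-CRD replicate 1 gave 1499. The epithelial marker Epcam had log2 ratios of 3.38 ± 0.50 in Fzd8-CRD cells and 3.64 ± 0.23 in control cells (SD, n = 5 and n = 4), and did not pass the test (adjusted p = 0.485, limma). Of 10 epithelial markers 1 rose (Krt5, by 0.80 in the ratio, adjusted p = 0.00715, and 0.051 in Cy5 alone) and 0 fell, while Krt14 at 0.79, Krt17 at 0.66 and Krt18 at -1.15 did not pass. In bulk RNA such as this, fewer cells of a type and less RNA per cell cannot be told apart.

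Interferon beta is a secreted cytokine that cells make when sensors detect foreign or misplaced nucleic acid. The sensors activate the transcription factors IRF3 and NF-kB, which bind side by side with others on the short Ifnb1 enhancer. The cytokine binds IFNAR1 and IFNAR2, the kinases TYK2 and JAK1 phosphorylate STAT proteins, STAT2 among them, and with IRF9 these form the complex ISGF3 that switches on interferon-stimulated genes, Irf7 among them. IRF7 in turn amplifies interferon production.

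The promoters of 3 of these genes are shown because Ifnb1 and Irf7 had the lowest differences of the 9 genes and Stat2 held the other matches to an interferon regulatory motif. They are RefSeq sequences of the build GRCm38.p6, 180 bases each, on the gene's strand. Ifnb1 lies at chr4:88522865-88523044 on the minus strand (bases 250 to 71 before the start), Stat2 at chr10:128270248-128270427 on the plus strand (bases 250 to 71) and Irf7 at chr7:141266445-141266624 on the minus strand (bases 200 to 21). Capitals mark matches to the IRF core AANNGAAA, the NF-kB site GGGAAATTC and the TATA box TATAAA, searched on both strands:
Ifnb1: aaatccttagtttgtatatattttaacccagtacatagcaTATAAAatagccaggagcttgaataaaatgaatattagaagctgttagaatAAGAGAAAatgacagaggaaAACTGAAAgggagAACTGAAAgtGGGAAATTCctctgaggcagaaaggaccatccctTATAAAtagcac
Stat2: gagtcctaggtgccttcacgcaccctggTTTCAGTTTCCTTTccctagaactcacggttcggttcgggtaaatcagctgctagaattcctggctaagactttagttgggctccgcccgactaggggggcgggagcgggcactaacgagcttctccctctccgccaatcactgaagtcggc
Irf7: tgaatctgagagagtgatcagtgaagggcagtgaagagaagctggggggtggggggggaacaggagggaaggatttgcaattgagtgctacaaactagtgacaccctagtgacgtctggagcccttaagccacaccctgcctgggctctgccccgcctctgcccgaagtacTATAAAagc

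The Ifnb1 window held 3 IRF cores, at bases 159 to 152, 139 to 132 and 126 to 119 before the start, followed by the NF-kB site at bases 116 to 108 and a TATA box at bases 82 to 77, with another TATA match at 210 to 205. Among 32851 promoter windows of 250 bases, 21.3% held at least 1 IRF core, 4.20% held 2 or more, and 0.216% (71 windows) held the NF-kB site. Stat2 had 2 IRF cores that overlap each other, at bases 222 to 215 and 216 to 209 on the opposite strand. These also overlap a match to the ISRE core GAAANNGAA, the binding motif of ISGF3, which 7.13% of windows held. The Irf7 window had a TATA box (12.4% of windows), and that of Ifnar2 a match to the STAT motif TTCNNNGAA (7.02% of windows). The windows of Ifnar1, Irf3, Irf9, Tyk2 and Jak1 held none of the 5 motifs. For Irf7, Jak1, Tyk2, Ifnar1 and 1 of the 2 Irf9 windows, the start used lies inside the annotated span of the gene. No starts beyond those of the windows were searched. A match describes the letters only.

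Ifnb1 had the largest difference of the 9 genes. Its probe lies on mouse chromosome 4, from 87993350 to 87993409 in the build mm8 that the Fzd8-CRD file headers name. The log2 Cy5/Cy3 ratio was 0.26, 0.13, 0.086, 0.035 and 0.018 on the 5 Fzd8-CRD arrays, against 2.71, 3.05, 3.51 and 3.20 on the 4 control arrays. Every Fzd8-CRD value lay near 0, and the groups were far from overlapping. The means were 0.11 ± 0.099 in Fzd8-CRD cells and 3.12 ± 0.33 in control cells (SD, n = 5 and n = 4), a difference of -3.01 with an SE of 0.16. Since the genes were chosen with this contrast known, no test is given for any of the 9.

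**Figure D1:**
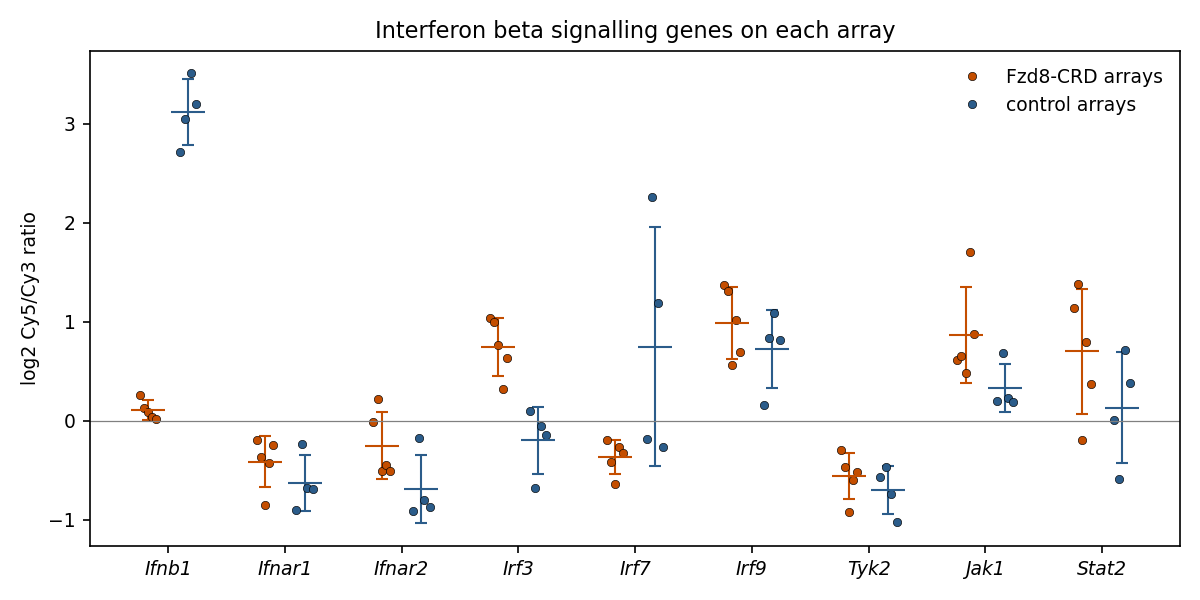
The log2 Cy5/Cy3 ratio (vertical axis) of each of the 9 genes on each array, Fzd8-CRD arrays left of control arrays. Points are arrays, horizontal bars are group means and error bars are SDs (n = 5 and n = 4). Ifnb1 lies between 0.018 and 0.26 on the Fzd8-CRD arrays and between 2.71 and 3.51 on the control arrays, Irf7 is spread over -0.26 to 2.26 among the control arrays, and the other genes, Irf3 excepted, overlap between the groups.

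The Ifnb1 spot itself was at or near the background of the slide in Fzd8-CRD cells. In Cy5, the spot mean minus the local background was 14.9, 3.29, 3.56, 8.39 and 9.38 intensity units on the Fzd8-CRD arrays, against 302, 290, 758 and 568 units on the control arrays. It was detected in Cy5 on 1 of 5 Fzd8-CRD arrays (replicate 1) and on 4 of 4 control arrays. Ifnb1 thus met the filter through the control arrays alone, which favours a difference below 0. In Cy3, the reference, the same spot gave -14.2 to 1.11 units on the Fzd8-CRD arrays and 5.48 to 10.1 units on the control arrays, and it was well above background there on 0 of 9. The ratio therefore had a denominator at background on every array. With Cy5 alone, after quantile normalization, the difference was -2.22, and with Cy3 alone it was 0.010.

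**Figure D2:**
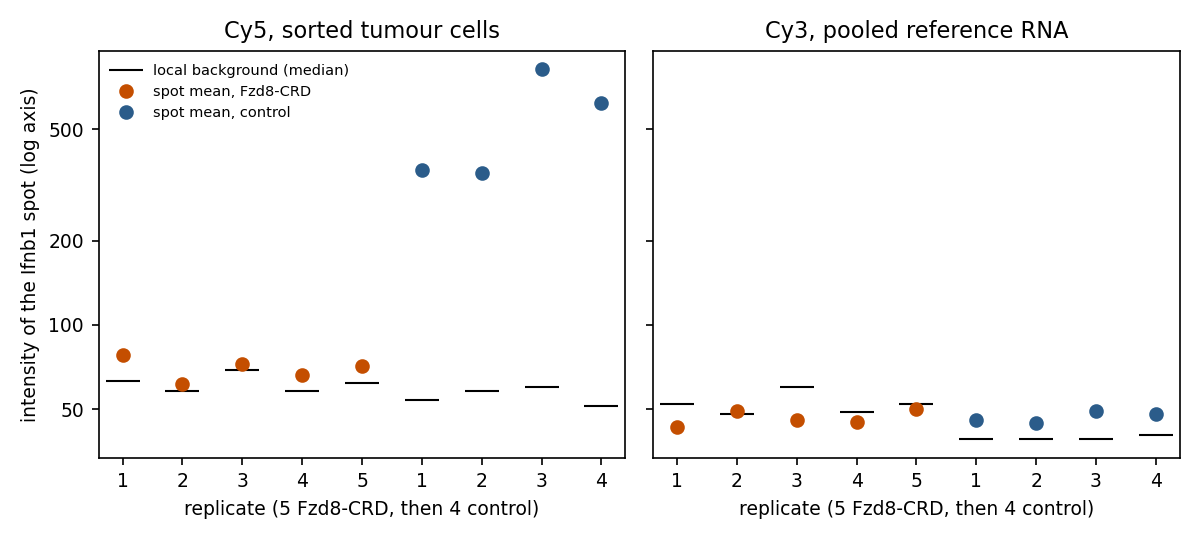
Intensity of the Ifnb1 spot (vertical log axis) in Cy5 (left panel) and Cy3 (right panel) on each array, 5 Fzd8-CRD arrays and then 4 control arrays. Circles are spot means and horizontal bars the local background. In Cy5 the control spots stand 290 to 758 units above their background and the Fzd8-CRD spots 3.29 to 14.9 units, and in Cy3 no array is more than 10.1 units above it.

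The size of the Ifnb1 difference depended on how a value near background was treated. The scanner software's own log2 ratio was 0 to 2.65 on the Fzd8-CRD arrays and 6.44 to 7.59 on the control arrays, a difference of -5.83. It gave values also where the spot lay below its local background in Cy3. It is therefore not a plain ratio of signals minus local background. With a smaller offset in the normexp background correction, 16 in place of 50, the difference was -3.93. Leaving out each array in turn gave -3.15 to -2.88.

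The other type I interferon genes gave small differences. Of 14 such genes listed (the Ifna family, Ifnab, Ifne, Ifnk and Ifnz), 8 were tested. By limma 0 changed, beside 14.3% of all genes, with 3 at an unadjusted p under 0.05. All 8 differences were below 0, from -0.50 for Ifna6 to -0.083 for Ifnz. Ifna6 had a mean log2 ratio of -0.0082 in Fzd8-CRD cells and 0.50 in control cells. It was detected on 1 of 5 and 4 of 4 arrays, as were Ifna2, Ifna5 and Ifna12. These 4 of the 8 genes thus met the filter through the control arrays alone, which favours differences below 0. With Cy5 alone 3 of the 8 passed, beside 18.8% of all genes. They were Ifnab at -0.61 (limma adjusted p = 0.0146), Ifna5 at -0.47 (adjusted p = 0.0214) and Ifna13 at -0.34 (adjusted p = 0.0474). In Cy3 alone the same 3 genes differed by -0.58, -0.34 and -0.40. The Ifna genes are near-identical copies, so a probe named for one may also bind RNA of another.

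The receptor chains differed by less than Ifnb1. Ifnar1, the chain that binds TYK2, had log2 ratios of -0.85 to -0.20 on the Fzd8-CRD arrays and -0.91 to -0.23 on the control arrays. Its difference was 0.21 with an SE of 0.18, and -0.032 with Cy5 alone. Ifnar2, the chain that binds JAK1, had log2 ratios of -0.51 to 0.22 on the Fzd8-CRD arrays and -0.92 to -0.17 on the control arrays by its brighter probe, with a difference of 0.44 and an SE of 0.21. Its other probe gave 0.60 to 0.84 in Fzd8-CRD cells and -0.022 to 0.43 in control cells, a difference of 0.55, with no overlap of the groups.

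Much of the Ifnar2 ratio difference lay in the reference dye. With Cy5 alone the differences of its probes were 0.11 and 0.16, with overlapping groups, while Cy3 alone gave -0.42 and -0.52, with no overlap. Over all genes, 59.1% changed in Cy3 alone and 18.8% in Cy5 alone (limma, adjusted p under 0.05), so a ratio difference can carry a difference in the reference signal. On mouse chromosome 16, RefSeq places Il10rb between Ifnar2 and Ifnar1 and Ifngr2 beyond them. These genes encode chains of the interleukin 10 and interferon gamma receptors. Il10rb differed by 0.49 and Ifngr2 by 0.22 on the log2 ratio scale, and neither passed the test (limma, adjusted p = 0.268 and 0.621).

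In the ratio the kinases also overlapped between the groups. Tyk2 had log2 ratios of -0.92 to -0.29 on the Fzd8-CRD arrays and -1.02 to -0.47 on the control arrays, with a difference of 0.14 and an SE of 0.16. Jak1, by its brightest probe, had 0.62, 0.66, 0.48, 1.70 and 0.88 on the Fzd8-CRD arrays, against 0.20, 0.69, 0.23 and 0.19 on the control arrays. Fzd8-CRD replicate 4 was the high one in the first group and control replicate 2 in the second. The Jak1 difference was 0.54 with an SE of 0.25, and the other Jak1 probes gave 0.34 and 0.25. With Cy5 alone the brightest probe gave 0.13 and with Cy3 alone -0.44. The second probe gave 0.41 in Cy5 alone and -0.014 in Cy3 alone. For the third these were 0.69 and 0.28, with no overlap of the groups in either dye. The third probe is written in the opposite orientation to the other Jak1 probes, and only the files of the Fzd8-CRD arrays name it Jak1. Which transcript it measures was not tested.

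Stat2, the subunit of ISGF3 that binds IRF9, varied within both groups. Its log2 ratio was 1.14, 1.38, -0.20, 0.80 and 0.38 on the Fzd8-CRD arrays, against 0.0090, -0.59, 0.72 and 0.39 on the control arrays. Fzd8-CRD replicate 3 lay below 3 of the 4 control values. The difference was 0.57 with an SE of 0.36 in the ratio, 1.06 in Cy5 alone and 0.31 in Cy3 alone. Irf9, the DNA-binding subunit, had log2 ratios of 0.56 to 1.37 on the Fzd8-CRD arrays and 0.16 to 1.09 on the control arrays, a difference of 0.27 with an SE of 0.23. Its dimmer probe gave -0.23, with groups that overlapped as well.

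Irf3, the factor that starts Ifnb1 transcription, had the largest difference above 0. By its brighter probe the log2 ratio was 1.03, 1.00, 0.76, 0.32 and 0.63 on the Fzd8-CRD arrays, against 0.094, -0.68, -0.050 and -0.14 on the control arrays. The groups did not overlap in the ratio. The means were 0.75 ± 0.29 in Fzd8-CRD cells and -0.20 ± 0.34 in control cells (SD, n = 5 and n = 4), a difference of 0.94 with an SE of 0.20. In Cy5 alone it was 0.89, with groups that overlapped, and in Cy3 alone -0.15. The dimmer Irf3 probe, designed on another transcript record, ran the other way at -0.54, with 0.36 to 0.91 on the Fzd8-CRD arrays and 0.68 to 1.56 on the control arrays. The mean of both probes gave a difference of 0.20, so the direction for Irf3 rests on the choice of probe.

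Irf7, itself an interferon-stimulated gene, split the control arrays. Its log2 ratio was -0.19, -0.42, -0.64, -0.27 and -0.32 on the Fzd8-CRD arrays, against -0.18, 2.26, 1.19 and -0.26 on the control arrays. Control replicates 2 and 3 were high, while control replicates 1 and 4 lay within or next to the Fzd8-CRD range. The difference was -1.12 with an SE of 0.47, and -0.62 without control replicate 2. Cy5 alone gave -0.998 and Cy3 alone 0.041.

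Across the 9 genes, 7 differences lay above 0 and 2 below (Ifnb1 and Irf7), with a median of 0.27. The groups of 2 of the 9, Irf3 and Ifnb1, did not overlap, beside 19.5% of all genes. The 9 were chosen with this contrast known, and nothing is read from this count.

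**Figure D3:**
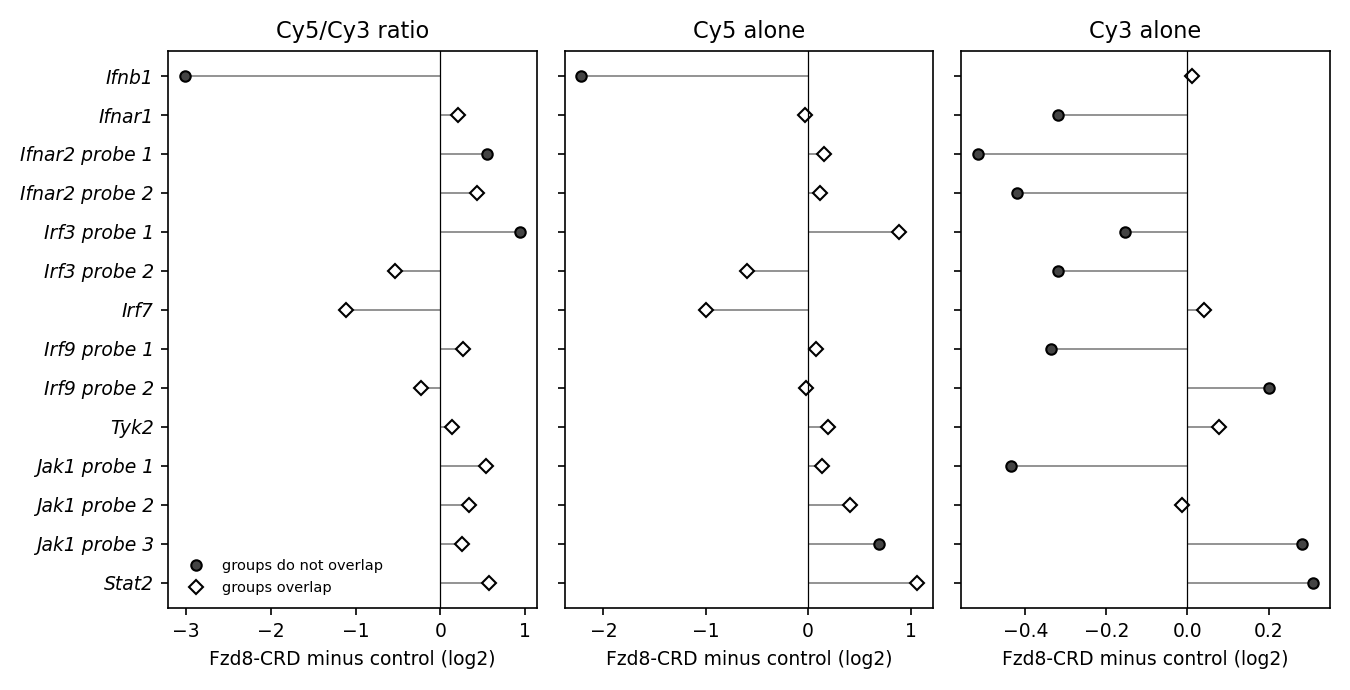
Difference between Fzd8-CRD and control cells (horizontal axes, log2) for each of the 14 probes, in the Cy5/Cy3 ratio, in Cy5 alone and in Cy3 alone, with a scale of its own in each panel. Filled circles mark probes whose groups did not overlap and open diamonds those that did. Ifnb1 is far below 0 in the ratio (-3.01) and in Cy5 (-2.22) and near 0 in Cy3 (0.010). The 2 Irf3 probes lie on opposite sides of 0 in the ratio and in Cy5, and both below 0 in Cy3. Both Ifnar2 probes are lower in Cy3 in Fzd8-CRD cells.

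The genes whose pattern was most like that of Ifnb1 over the 9 arrays were Sox7 (Pearson r = 0.993), Adgrl4 (r = 0.990), Clns1a (r = 0.989), Serpinb11 (r = 0.988), Stoml2 (r = 0.984) and Angpt2 (r = 0.983). Sox7, Adgrl4 and Angpt2 are known from endothelial cells, where they encode a transcription factor, an adhesion receptor and a secreted ligand. Sox7 had a mean log2 ratio of 0.81 in Fzd8-CRD cells and 3.52 in control cells. These r values mostly follow the gap between the groups. After each group's mean was subtracted, the most similar were Dio3 (r = 0.976), Dhx58 (r = 0.963), Rnf213 (r = 0.954), Fmnl3 (r = 0.953), Oas2 (r = 0.951) and Gbp3 (r = 0.950). Dhx58, an RNA sensor of the RIG-I family, and Oas2 and Gbp3 are known interferon-stimulated genes. The spread of Ifnb1 that this second measure follows lay mostly among the 4 control arrays. The r values describe 9 arrays and carry no test. Of these arrays, Fzd8-CRD replicates 1 and 4 share a slide, and all control arrays share another.

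The genes that sense nucleic acid and induce Ifnb1 mostly did not pass the test. Of 36 listed, 33 were tested, 0 rose and 2 fell (6.06%, beside 14.3% of all genes), with a median difference of -0.0092 beside -0.07 for all genes. Ifi204, a DNA sensor of the HIN-200 family, fell by 1.21 (SE 0.31, limma adjusted p = 0.0317). It did not pass as the mean of its probes (-0.58, adjusted p = 0.107) or with scale normalization (-2.69, adjusted p = 0.0795). Sting1, the adaptor of cytosolic DNA sensing, fell by 0.52 in the ratio (SE 0.15, limma adjusted p = 0.0466), with differences of -0.023 in Cy5 alone and 0.39 in Cy3 alone. Among those that did not pass, Jun differed by -0.70, the RNA sensor Ifih1 by -0.58 and the endosomal RNA receptor Tlr3 by -0.50. The sign of Jun turned with scaling between arrays (0.62). The number changed was 0 when Fzd8-CRD replicate 2, 3, 4 or 5 was left out, 1 without Fzd8-CRD replicate 1 or control replicate 2, 3 or 4, and 4 without control replicate 1.

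The interferon-stimulated genes were listed as genes known to be induced through the type I interferon receptor. Which interferon acted on them here was not tested. Of 51 listed, 48 were tested. In these, 1 rose and 6 fell (14.6% changed, beside 14.3% of all genes), and the median difference was -0.48. Cxcl10, a chemokine that attracts T cells, had log2 ratios of 0.74, 0.85, 0.25, -0.11 and 0.46 on the Fzd8-CRD arrays, against 1.19, 3.24, 2.72 and 2.37 on the control arrays. The groups did not overlap, and Cxcl10 fell by 1.94 (SE 0.38, limma adjusted p = 0.0123). Psmb8, an immunoproteasome subunit, fell by 1.25 (SE 0.26, limma adjusted p = 0.0152), Oasl1 by 0.90 (SE 0.19, adjusted p = 0.0153) and Ifi35 by 0.83 (SE 0.17, adjusted p = 0.0137). Ifi205, another HIN-200 gene, was not well above background in Cy5 on any of the Fzd8-CRD arrays, so it passed the filter through the control arrays alone. Its mean log2 Cy5 signal, after loess and normalization of the average intensities between arrays, was 6.42 in Fzd8-CRD cells and 6.98 in control cells, on that scale at least 1.47-fold higher in control cells (limma adjusted p of the ratio = 0.0192). That bound sets the mean control signal against the lowest signal well above background on each Fzd8-CRD array, or the probe's own where higher. In quantile-normalized Cy5 alone the Ifi205 difference was -0.45. The sixth gene that fell was the chemokine Cxcl9, at -1.01 (limma adjusted p = 0.0394) and -0.43 in Cy5 alone (adjusted p = 0.224). It lay outside the rule for named genes and was added after its value was seen. Median centring and scale normalization each ended the calls of Oasl1 (-0.79 and -1.27, adjusted p = 0.131 and 0.0747) and Ifi35 (-0.70 and -0.87, adjusted p = 0.170 and 0.0750). Median centring also ended that of Ifi205 (-0.74, adjusted p = 0.0507), as did leaving out control replicate 3 (-0.61, adjusted p = 0.0539) or 4 (-0.70, adjusted p = 0.0523).

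Adar, an RNA-editing enzyme that limits sensing of the cell's own RNA, was the gene that rose, by 0.75 (SE 0.16, limma adjusted p = 0.0161). Its difference was 0.22 in Cy5 alone (adjusted p = 0.251) and -0.60 in Cy3 alone, and it did not pass with Cy5 alone, median centring (0.86, adjusted p = 0.0710) or scale normalization (0.56, adjusted p = 0.0531). The antiviral gene Rsad2 had -0.40 to 0.10 on the Fzd8-CRD arrays and 1.24, 6.28, 1.94 and 1.01 on the control arrays. Its groups did not overlap, and control replicate 2 was far above the rest. It did not pass with all arrays (difference -2.77, limma adjusted p = 0.0765) and did without that array (-1.55, adjusted p = 0.00576). The chemokine Ccl5 behaved likewise, at -2.29 (adjusted p = 0.0662) with all arrays and -1.36 (adjusted p = 0.0115) without control replicate 2. The exonuclease Isg20 differed by -1.54 (adjusted p = 0.313) with all arrays and by -0.23 (adjusted p = 0.548) without control replicate 2.

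The control arrays did not share 1 level of interferon-stimulated genes. The median of the 48 genes, each relative to its mean over the arrays, was 0.0020, -0.050, -0.29, -0.36 and -0.29 on the Fzd8-CRD arrays, against -0.48, 0.70, 0.50 and 0.11 on the control arrays. Control replicate 1 had the lowest median of all 9 arrays, and it was also the control array with the lowest Ifnb1 ratio, 2.71. The other control arrays did not keep that order. Control replicate 2 had the highest median, with an Ifnb1 ratio of 3.05. The highest Ifnb1 ratio, 3.51, was on control replicate 3. Without control replicate 1, 21 of the genes changed (1 rose and 20 fell). Without control replicate 2, 9 changed (1 rose and 8 fell).

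**Figure D4:**
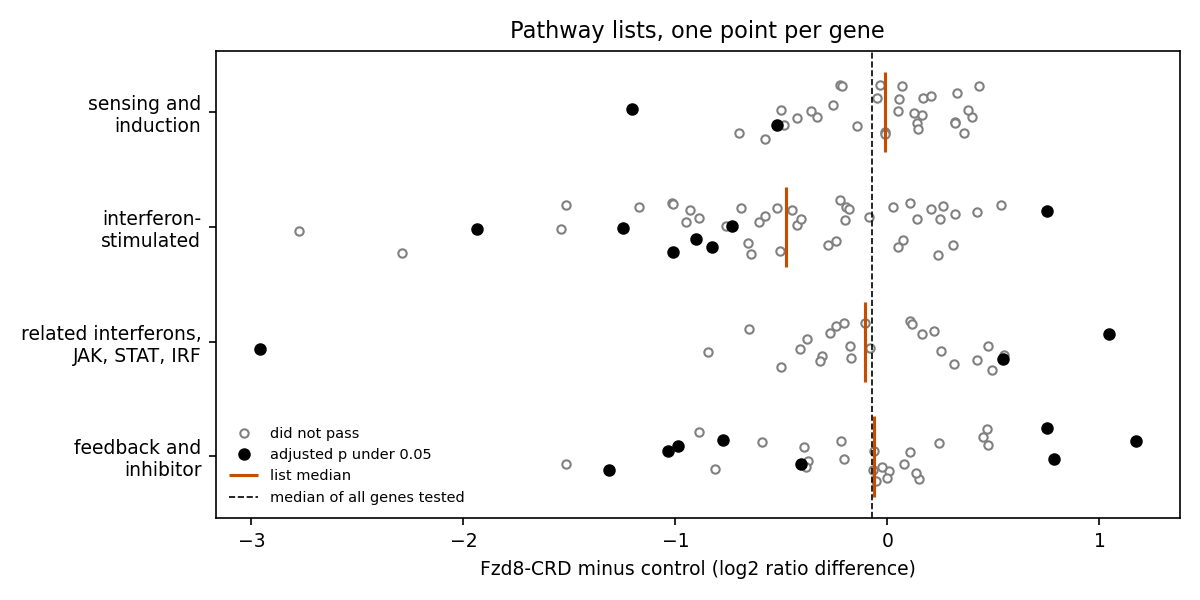
Difference between Fzd8-CRD and control cells (horizontal axis, log2 ratio) for each tested gene of the 4 pathway lists (vertical axis; height within a list has no meaning). Black points passed the test, open points did not, orange bars are list medians and the dashed line is the median of all genes (-0.07). The interferon-stimulated genes have the lowest list median, -0.48, and the sensing list holds 2 black points, both below 0.

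Among related interferons, kinases, STATs and IRFs, 27 of 35 listed genes were tested, 2 rose and 1 fell (11.1%, beside 14.3% of all genes), with a median of -0.10. Ifng, the type II interferon, had log2 ratios of 0.71, 0.18, 0.44, 0.43 and 0.17 on the Fzd8-CRD arrays, against 3.49, 5.63, 1.81 and 2.46 on the control arrays. It fell by 2.96 (SE 0.64, limma adjusted p = 0.0176) and was detected on 4 of 5 Fzd8-CRD arrays and 4 of 4 control arrays. With Cy5 alone it did not pass (-1.86, adjusted p = 0.0864), and Cy3 alone gave 0.30. Stat3, which signals for the interleukin 6 family, rose by 1.05 (SE 0.29, adjusted p = 0.0412), with 0.46 in Cy5 alone and -0.63 in Cy3 alone. Stat6, which signals for interleukin 4, rose by 0.55 (SE 0.15, adjusted p = 0.0439). As the mean of a gene's probes neither passed, Stat3 at 0.69 (adjusted p = 0.108) and Stat6 at 0.23 (adjusted p = 0.179). Ifngr1 differed by -0.85, Irf8 by -0.65 and Irf1 by 0.55, and none of these passed. The number changed was 1 without Fzd8-CRD replicate 1, 2 or 4, or without control replicate 3 or 4, and in each of these fits the Stat3 and Stat6 calls were lost.

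Of the genes that restrain interferon signalling, 31 of 32 listed were tested, 3 rose and 5 fell (25.8%, beside 14.3% of all genes), with a median of -0.061. The number changed was 1 with median centring and 2 with scale normalization. Cyld, a deubiquitinase that restrains RNA sensing and NF-kB, fell by 1.31 (SE 0.18, limma adjusted p = 0.00438), and by 0.49 as the mean of its probes (adjusted p = 0.0438). Usp18, an interferon-induced brake on the receptor, fell by 0.99 (SE 0.19, adjusted p = 0.0123), and Trex1, a DNA exonuclease that limits DNA sensing, fell by 1.03 (SE 0.21, adjusted p = 0.0134). Trex1 did not pass in Cy5 alone (-0.64, adjusted p = 0.0715), with median centring (-0.90, adjusted p = 0.138) or with scale normalization (-0.56, adjusted p = 0.107). Tax1bp1, an adaptor that restrains innate signalling, fell by 0.77 (SE 0.15, adjusted p = 0.0123). Ptpn1, a phosphatase of JAK family kinases, rose by 0.79 (SE 0.14, adjusted p = 0.00886), beside Adar, which this list shares with the interferon-stimulated genes. Socs3, a suppressor of cytokine signalling, rose by 1.17 (adjusted p = 0.0193), with 1.15 in Cy5 alone. Socs3 lay outside the rule for named genes and was added after its value was seen. Median centring and scale normalization each ended the calls of Usp18 (-0.86 and -1.91, adjusted p = 0.0981 and 0.0715) and Tax1bp1 (-0.71 and -0.44, adjusted p = 0.258 and 0.216), and median centring that of Ptpn1 (0.85, adjusted p = 0.209). Usp18 is also a known interferon-stimulated gene. Isg15 differed by -1.52 (adjusted p = 0.0749), Trim30a by -0.89 (adjusted p = 0.0725) and Ptprc by -0.81 (adjusted p = 0.382). Without control replicate 1, Isg15 (-1.97, adjusted p = 0.0245) and Trim30a (-1.23, adjusted p = 0.00611) passed. Without control replicate 2, Isg15 was at -0.97 (adjusted p = 0.0806) and Ptprc at -0.050 (adjusted p = 0.917). The number changed stayed between 7 and 9 when single arrays were left out.

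Some markers of other cell types also differed between the groups. All 6 endothelial markers fell, and their list median, relative to each gene's mean, was -1.76 to 0.088 on the Fzd8-CRD arrays and 0.83 to 1.46 on the control arrays. Pecam1, an adhesion molecule of endothelium, fell by 1.24 (limma adjusted p = 0.00307). The summed Cy5 signal of the list was 9.99 to 11.3 in Fzd8-CRD cells and 11.99 to 12.7 in control cells on the log2 scale. Of 5 erythrocyte markers 3 were tested and all 3 fell, with list medians of -2.36 to -0.87 on the Fzd8-CRD arrays and 1.08 to 4.85 on the control arrays. Their summed log2 Cy5 signal was 8.60 to 10.7 in Fzd8-CRD cells and 13.4 to 19.7 in control cells. The haemoglobin gene Hba-a1 fell by 4.31 (adjusted p = 0.00668). Neither list median overlapped between the groups. Over all genes, taken singly, 19.5% did not overlap.

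Leukocyte markers, in contrast, set control replicate 2 apart. The T and NK cell list had a median of 2.37 on that array, against -0.25 to -0.013 on the other control arrays and -0.45 to -0.086 on the Fzd8-CRD arrays, and Ptprc stood at 2.75 there. In that list 1 of 9 tested genes rose (Cd8b1) and 0 fell, where 14.3% of all genes changed. The other tested genes of the list differed by -1.84 (Nkg7) to -0.17 (Cd4), and the list median difference was -0.80. Cd8a was detected on 0 of 5 Fzd8-CRD arrays, Cd3g and Cd4 on 1 of 5 and Cd3d on 2 of 5. All of them were detected on 4 of 4 control arrays, and these alone met the filter. Of 9 macrophage and monocyte markers 1 fell (Mrc1), with list medians of -0.48 to 0.062 in Fzd8-CRD cells and -0.050 to 1.24 in control cells. Mrc1 was detected on 1 of 5 Fzd8-CRD arrays and Itgam, in the same list, on 0 of 5. Both were detected on 4 of 4 control arrays and met the filter through these alone. Of 8 markers of plasmacytoid dendritic cells, known for making type I interferon, 6 were tested and 0 changed by limma. Their list median was -0.22 to 0.049 in Fzd8-CRD cells and -0.21 to 0.44 in control cells, and Siglech was detected on 0 of 9 arrays. Klk1 and Spib were detected on 0 of 5 Fzd8-CRD arrays, Ccr9 on 1 of 5, and all of them on 4 of 4 control arrays. Klk1, Spib and Ccr9 thus met the filter through the control arrays alone. Of 7 fibroblast markers tested 0 changed by limma, with a median difference of -1.21. Their list median was 0.47, -0.29, -1.26, -1.23 and -0.53 on the Fzd8-CRD arrays, against -1.25, 2.29, 1.24 and 0.76 on the control arrays, with control replicate 1 apart from the other controls. The part of any of these cell types in the Ifnb1 and interferon-stimulated gene differences was not tested.

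**Figure D5:**
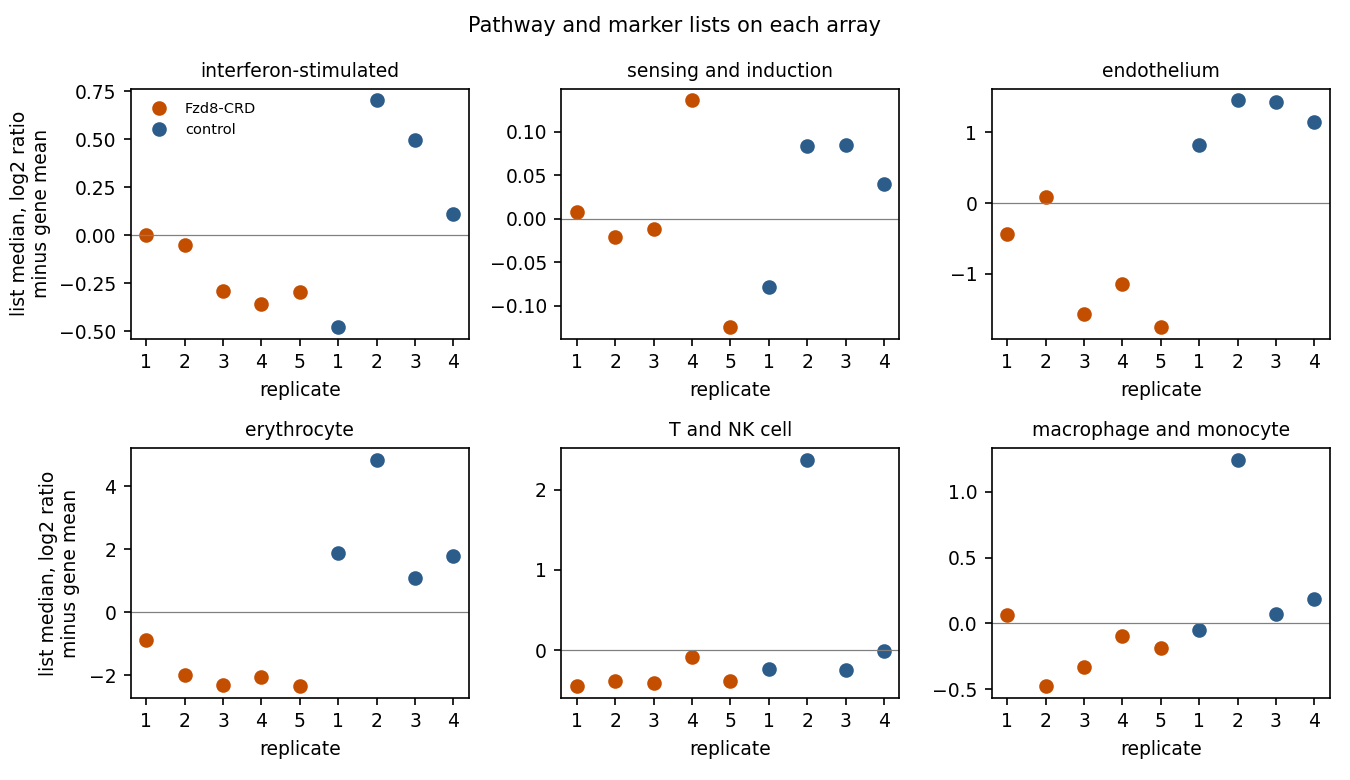
Median of 2 pathway lists and 4 marker lists on each array (vertical axes, log2 ratio minus each gene's mean, with a scale of its own in each panel), 5 Fzd8-CRD arrays and then 4 control arrays. Endothelial and erythrocyte medians do not overlap between the groups, T and NK cell and macrophage medians are highest on control replicate 2, and interferon-stimulated genes are lowest on control replicate 1 (-0.48).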

How the data were processed

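Spot intensity, a linear foreground mean and local background median per dye, was deposited per array. Per the file headers, the scanner software was Agilent Feature Extraction 9.5.3.1, which also gave a log10 ratio of Cy5 over Cy3. The series table deposited by the authors gives that ratio on a linear scale and correlated at 1 with the scanner ratio on every array, with medians of 0.833 to 0.954. It was neither centred nor turned.

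In limma 3.58.1 (R 4.3.3), backgrounds were corrected by normexp with offset 50, ratios were loess-normalized within arrays with weight 0 for control and outlier spots, and spots of a probe were averaged. The filter kept probes detected in Cy5 (the scanner's call of a signal well above background) on 4 or more arrays, 26823 of 41174, the brightest standing for its gene (18263 genes). Each dye alone was quantile-normalized. Differences are Fzd8-CRD minus control, fitted with lmFit and eBayes over all 9 arrays, with Benjamini-Hochberg adjustment over all genes and a threshold of 0.05. The fit was checked on simulated data. The number of arrays limits the precision. Probes were named by accession, then symbol, then synonym through RefSeq tables, while 8148 stayed under their deposited name.

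The members, lists and tests were chosen with earlier results of these data known. Named from each list were all changed genes where 5 or fewer passed, otherwise the 6 with the smallest p, plus the 3 largest differences that did not pass. Likeness names the 6 highest Pearson r. Groups come from the treatment label, replicates are numbered in accession order, and alternatives covered background, normalization, filter, probe choice, weights, slide and left-out arrays. The results of 2 related genes are not reported here.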

Additional observations from a re-analysis of the deposited data

Results flagged for a closer look

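Among 74 groups of arrays examined for the 37 named genes, 7 held 1 array whose gap to the nearest other exceeded Dixon's critical value, where chance flags about 1 in 20 groups. In the control group this array was replicate 2 each time. Its log2 ratio for Isg20 was 4.70, against -0.60 to -0.46 on the other control arrays, and for Ccl5 it was 3.19, against -0.69 to -0.33. For Jak1 it had 0.69, against 0.19 to 0.23, for Ifnar2 -0.17, against -0.92 to -0.80, and for Tax1bp1 1.07, against 0.91 to 0.93. Among the Fzd8-CRD arrays, replicate 4 had 1.15 for Trex1, against 0.32 to 0.56 on the others, and replicate 2 had 0.44 for Sting1, against 0.11 to 0.21.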

How the results depend on the processing

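No paired analysis was possible because the labels carry no replicate numbers that groups could share. Ifnb1 stayed below 0 in each of 21 alternatives, at -3.93 with offset 16, -5.83 in the scanner log ratio, -5.53 in the deposited series table, -2.35 with scale normalization and -2.22 with Cy5 alone. It gave no value where probes had to be well above background on all arrays. Leaving out single arrays gave -3.15 to -2.88 for Ifnb1 and 0.17 to 0.39 for the median of the 9 genes, which was 0.52 in the scanner log ratio and in the series table. The number of changed genes was 608 with median centring, 1619 with scale normalization, 6018 with array weights, 5506 with slide as a random block and 1339 to 3098 without single arrays. For sensing and induction the number was 1 with offset 16, median centring, the all-array filter and the mean of a gene's probes, 4 with Cy5 alone, 8 with array weights, 6 with the slide block and 0 to 4 without single arrays. For interferon-stimulated genes it was 2 with median centring, 4 with scale normalization, 13 with Cy5 alone, 21 with array weights and with the slide block, and 5 to 21 without single arrays. For related genes it was 1 with median centring, the all-array filter and the mean of probes, 9 with array weights and with the slide block, and 1 to 4 without single arrays. For feedback genes it was 1 with median centring, 2 with scale normalization, 13 with array weights and 7 to 9 without single arrays. The slide block used a consensus correlation of -0.168 within slides, and a negative value narrows the SE of the control mean. All control arrays share 1 slide, so the block cannot separate slide from treatment. Jun, not called, was 0.62 with scale normalization in place of -0.70. Ifnar1 was below 0 with Cy5 alone (-0.032) and scale normalization (-0.013). Among the named genes of the lists, 521 of the values kept direction and side of the threshold, 66 lost the call, 25 gained it and 1 (Jun) turned sign, and the cause was not tested. Sting1 lost its call in 16 of 22 alternatives, Stat6 in 14, Stat3 in 10 and Ifi204 in 7.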
